A study of Arabidopsis thaliana with 12 samples.

Results

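The genes described here are 5 markers of hormone-controlled defence in Arabidopsis thaliana. They are the plant defensin gene PDF1.2 (AT5G44420), the thionin gene THI2.1 (AT1G72260), a further thionin gene known by its locus AT1G66100, the jasmonate methyltransferase gene JMT (AT1G19640) and the glutaredoxin gene GRX480 (AT1G28480, also called ROXY19). They were chosen by name, with earlier results of these data known, and each was matched by its locus to 1 probe set. They are thus 5 of the 22746 probe sets tested and 5 of the 13286 genes that could be named. PDF1.2 lies on chromosome 5 and the other 4 genes on chromosome 1.

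Transcripts were measured on 1-colour Affymetrix arrays in the aerial parts of seedlings aged 10 days, after 9 days of growth at 22 °C under constant white light and a treatment of 24 hours with 1 of 4 conditions. The groups were far-red with ABA (white light with added far-red light, plus the hormone abscisic acid), far-red (the same light without ABA), white light with ABA, and white light (mock-treated). Each group had 3 arrays, called biological replicates by the labels. The p-values rest on the spread between replicate samples, pooled over the 4 groups and drawn toward the spread of all probe sets. They do not measure the spread of the compared groups alone. The labels give far-red light as 6 and white light as 80 mmol per square metre and second, and ABA as 1 mM, and it could not be checked that the unit prefixes are right. No strain, genotype or number of plants per sample is named by the labels, and all groups share the same first 9 days.

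Jasmonate is made from membrane lipids after wounding or attack by insects and necrotrophic fungi. Its receptor COI1 leads JAZ repressor proteins to destruction, which frees MYC transcription factors, while a branch that also needs ethylene acts through ERF factors and switches on PDF1.2. Salicylate accumulates after attack by biotrophic pathogens, acts through NPR1 and TGA factors, and is known to restrain part of the jasmonate output. Added far-red light mimics the shade of neighbouring leaves and is sensed by phytochromes. Shade and ABA are both known to alter the balance of these defence pathways.

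The 12 arrays resembled each other closely, with Pearson correlations of 0.995 to 0.998 within groups and 0.988 to 0.997 between groups. The median log2 value per array was 5.45 to 5.62, and 60.6% to 67.2% of probe sets were called present, both highest on far-red replicate 3. The 5 measured green tissue markers were called present on every array, at 11.9 to 13.4 log2 units, and their summed linear signal per array was 32466 to 33749 in far-red with ABA, 31257 to 32352 in far-red, 32709 to 33977 in white light with ABA and 31973 to 33020 in white light. The 2 measured root markers EXPA7 and EXPA18 were called present on no array. The treatments left their known marks: the ABA-induced gene COR15A was 2.92 log2 units higher with ABA under far-red light and 3.21 higher with ABA in white light, and the shade-induced gene IAA29 was 0.82 higher with far-red light when ABA was present and at least 1.87-fold higher when it was not. Precision is limited by the number of arrays, and the standard error (SE) of a difference between groups had a median of 0.101 log2 units over probe sets.

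AT1G66100 was the member that responded in every comparison of groups. It was called lower with ABA in each light condition and lower with far-red light at each ABA level. JMT was called lower with ABA under far-red light and higher with far-red light when no ABA was given. PDF1.2, THI2.1 and GRX480 were called in no comparison. A call means a Benjamini-Hochberg adjusted p under 0.05 in limma's fit over all probe sets.

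**Figure D1:**
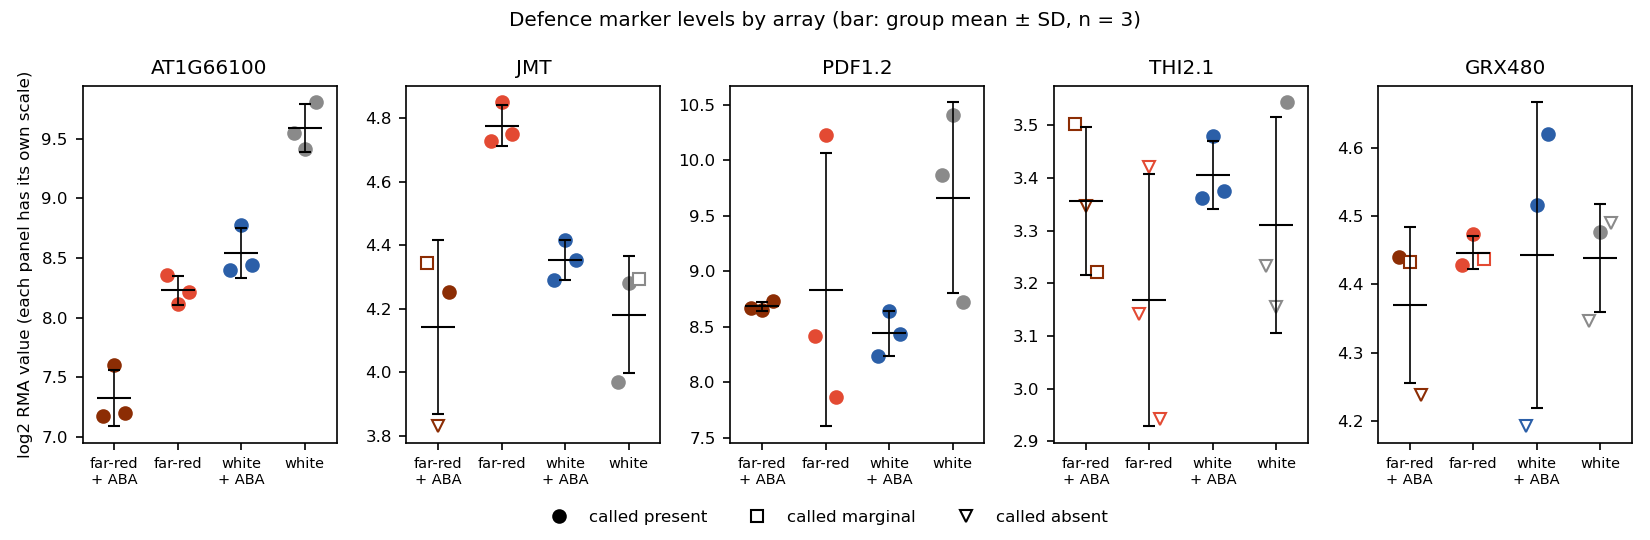
Level of each of the 5 genes on each of the 12 arrays, in log2 RMA units on the vertical axis (each panel has its own scale), with the 4 groups along the horizontal axis (far-red with ABA leftmost, white light rightmost). Filled circles, open squares and open triangles are arrays on which the gene was called present, marginal or absent, and bars give the group mean ± SD (n = 3). AT1G66100 steps up through the 4 groups without overlap, JMT is highest in far-red, and PDF1.2 spreads widely in the groups without ABA.

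For ABA under far-red light, 0 of the 5 members were called higher and 2 lower, where 10.3% of all probe sets were called, 5.06% higher and 5.28% lower. For ABA in white light the members had 0 higher and 1 lower, against a background of 6.43% called, 4.02% higher and 2.41% lower. Far-red without ABA had 1 member higher and 1 lower, with 6.12% of probe sets called, 3.87% higher and 2.26% lower. Far-red with ABA had 0 higher and 1 lower, and there only 0.369% of probe sets were called, 0.0791% higher and 0.29% lower. Far-red and ABA together against white light had 0 higher and 1 lower, where 10.6% were called, 6.48% higher and 4.08% lower. The median difference of the 5 members was -0.15 for ABA under far-red light, 0.0051 for ABA in white light, -0.07 for far-red with ABA, -0.14 for far-red without ABA and -0.07 for both together, and the medians over all probe sets lay between -0.01 and 0.0026. With 5 genes, no share of calls is read as a property of the set.

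The split of called probe sets into higher and lower depended on scaling, as centring each array on its median turned 62.5% higher into 43.9% for ABA in white light, 48.9% into 59.6% for ABA under far-red light, 63.2% into 23.2% for far-red without ABA (49.8% with quantile normalization) and 61.4% into 39.1% for both treatments together. No member's call changed with the scaling, and no scaling moved the median of all probe sets by more than 0.1 log2 units.

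Thionins are small cysteine-rich antimicrobial peptides that damage membranes, and AT1G66100 encodes a protein of this family. Its levels were 7.18, 7.60 and 7.20 log2 units in far-red with ABA and 8.35, 8.11 and 8.22 in far-red. They were 8.40, 8.78 and 8.44 in white light with ABA and 9.55, 9.41 and 9.81 in white light. The gene was called present on all 12 arrays, and no group overlapped any other. The share of probe sets with all 4 groups apart, or with far-red apart from white light with ABA, was not counted. Groups that do not overlap were common over all probe sets, at 27.7% for ABA under far-red light, 24.6% for ABA in white light, 18.8% for far-red with ABA, 25.5% for far-red without ABA and 27.9% for both treatments together.

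ABA lowered AT1G66100 by a similar measured amount in each light. Under far-red light it averaged 7.33 ± 0.24 with ABA and 8.23 ± 0.12 without (mean ± SD, n = 3 each), a 1.87-fold fall (log2 difference -0.90, SE 0.14, limma adjusted p = 6.5e-04). In white light it averaged 8.54 ± 0.21 with ABA and 9.59 ± 0.20 without, a 2.07-fold fall (-1.05, SE 0.14, limma adjusted p = 1.7e-04). In bulk tissue, fewer cells of a type and less RNA per cell cannot be told apart.

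Far-red light lowered AT1G66100 as well. With ABA present in both groups the fall was 2.32-fold (-1.21, SE 0.14, limma adjusted p = 8.0e-04), and AT1G66100 ranked 5 by p among the 84 probe sets called in that comparison. Without ABA it fell 2.57-fold (-1.36, SE 0.14, limma adjusted p = 8.1e-05) and ranked 12 among 1393. The comparison of far-red with ABA against white light combined both treatments, and the gene was 4.80-fold lower there (-2.26, SE 0.14, limma adjusted p = 4.1e-08).

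The interaction asks whether the ABA difference under far-red light departs from that in white light. For AT1G66100 it was 0.14 log2 units (SE 0.19, 95% confidence interval -0.26 to 0.55, limma adjusted p = 0.934). The measured combined difference of -2.26 lay beside a sum of -2.41 for the single treatments. Averaged over the other factor, the gene was 0.98 log2 units lower with ABA (difference -0.98, limma adjusted p = 4.6e-06), where 17.2% of probe sets were called, 8.64% higher and 8.57% lower. The averaged far-red difference was -1.29 (SE 0.10, limma adjusted p = 2.5e-06), where 9.28% of probe sets were called, 5.3% higher and 3.98% lower, and AT1G66100 ranked 7 by p in that comparison.

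From low to high, the groups ran far-red with ABA, far-red, white light with ABA and white light. The middle step, white light with ABA minus far-red, was 0.31 log2 units (SE 0.14, limma adjusted p = 0.132) and did not pass the threshold, although the 2 groups' arrays did not overlap. The outer steps are the ABA differences given above.

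**Figure D2:**
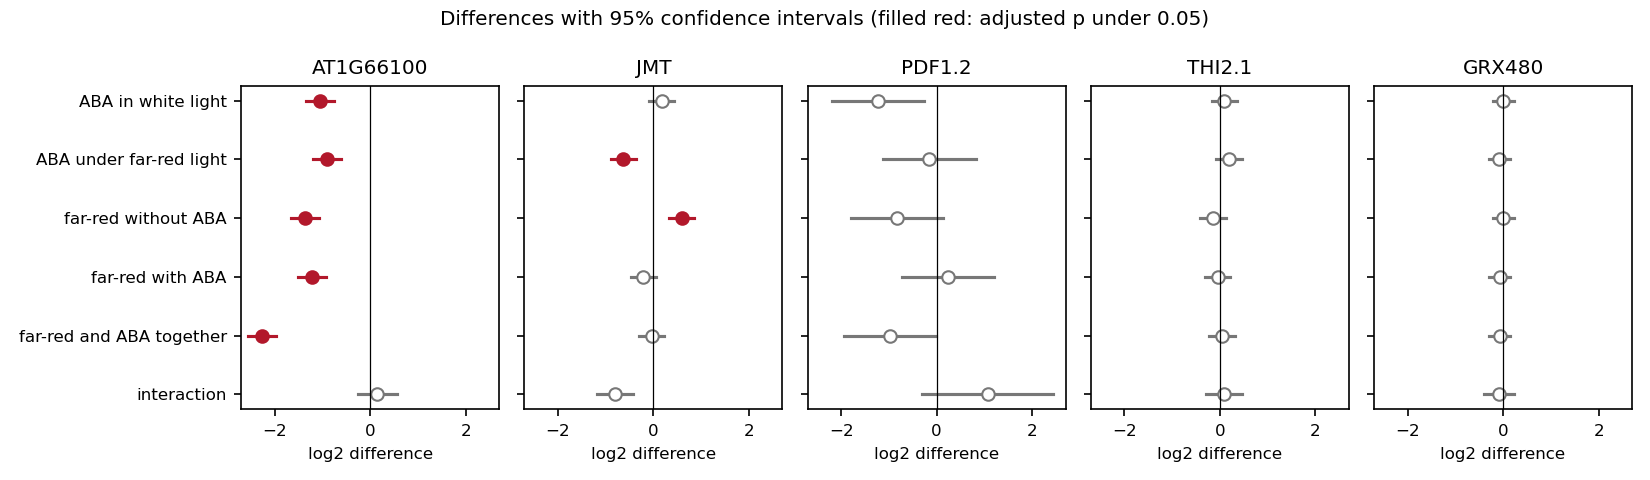
Differences for the 5 genes in 6 comparisons, as log2 units on a shared horizontal axis, with lines for 95% confidence intervals from limma (3 arrays per group). Filled red points passed an adjusted p under 0.05: all 5 differences between groups for AT1G66100, from -0.90 to -2.26, and 2 of opposite sign for JMT, -0.63 and 0.60.

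JMT encodes the enzyme that methylates jasmonic acid to the volatile methyl jasmonate. Its levels were 4.34, 3.83 and 4.25 log2 units in far-red with ABA and 4.73, 4.85 and 4.75 in far-red. They were 4.29, 4.42 and 4.36 in white light with ABA and 3.97, 4.28 and 4.29 in white light. Every array of far-red without ABA lay above every array of the other 3 groups. The share of probe sets with such a pattern was not counted.

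The probe set was called present on all arrays of far-red and of white light with ABA, on 2 of 3 in white light and on 1 of 3 in far-red with ABA, so the lower values sit near the limit of detection. JMT averaged 4.14 ± 0.27 in far-red with ABA and 4.78 ± 0.06 in far-red (n = 3 each). That was a 1.55-fold fall with ABA (-0.63, SE 0.12, limma adjusted p = 0.0040). The 2 groups did not overlap, as for 27.7% of all probe sets.

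In white light, JMT averaged 4.35 ± 0.06 with ABA and 4.18 ± 0.18 without, a difference of 0.17 (95% confidence interval -0.09 to 0.43, limma adjusted p = 0.504). Without ABA, far-red light raised JMT 1.51-fold (0.60, SE 0.12, limma adjusted p = 0.0131) with no overlap, as for 25.5% of all probe sets. This call was lost without white-light replicate 1 (0.49, adjusted p = 0.0660) and without far-red replicate 2 (0.56, adjusted p = 0.0603). With ABA in both groups the far-red difference was -0.21 (95% confidence interval -0.47 to 0.05, limma adjusted p = 0.529).

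The far-red and ABA treatments together left JMT at -0.04 relative to white light (95% confidence interval -0.30 to 0.22, limma adjusted p = 0.883). The sum of the single differences was 0.77, and the interaction, which is the gap between these values, was -0.81 (SE 0.17, 95% confidence interval -1.18 to -0.44). Its unadjusted p of 3.1e-04 ranked 12 among 22746 probe sets, and the limma adjusted p was 0.529. No probe set passed for the interaction (0%), while 1465 had an unadjusted p under 0.05 and the smallest adjusted p was 0.400. The fall of JMT with ABA under far-red light and its difference in white light were therefore not shown to differ after adjustment.

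The groups ran far-red, white light with ABA, white light and far-red with ABA from high to low. Far-red exceeded white light with ABA by 0.42 (SE 0.12, limma adjusted p = 0.0257). The next steps, 0.17 and 0.04, did not pass, and their arrays overlapped.

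PDF1.2 encodes a small secreted antifungal defensin and is the usual reporter of the jasmonate and ethylene branch. Its levels were 8.67, 8.65 and 8.73 log2 units in far-red with ABA, where the arrays nearly coincided. They were 8.42, 10.22 and 7.87 in far-red. They were 8.24, 8.65 and 8.44 in white light with ABA and 9.87, 10.41 and 8.72 in white light.

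The gene was called present on all 12 arrays. Both groups with ABA were tight and both groups without ABA were spread, with far-red replicate 2 and white-light replicate 2 the highest arrays. The SD was 0.04 in far-red with ABA and 1.23 in far-red, and 0.20 in white light with ABA and 0.86 in white light. Pooled over groups, the SD between replicates was 0.759, which only 14 of 22746 probe sets exceeded, against a median of 0.125. The far-red array with the lowest value, replicate 3, was also the array with the highest median and the highest share of present calls, and their part in this value was not tested.

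At this spread no PDF1.2 difference passed the threshold. The SE was 0.45 for every difference between 2 groups, because the fit pools the spread of all 4 groups. This holds also for far-red with ABA against white light with ABA, whose SDs were 0.04 and 0.20. Under far-red light the ABA difference was -0.15 (SE 0.45, 95% confidence interval -1.12 to 0.82, limma adjusted p = 0.890), and without far-red replicate 2 its sign turned (0.54). In white light, PDF1.2 averaged 8.44 ± 0.20 with ABA and 9.67 ± 0.86 without, a difference of -1.22 (SE 0.45, 95% confidence interval -2.19 to -0.26, limma adjusted p = 0.139). These groups did not overlap, as for 24.6% of all probe sets.

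The ABA difference in white light was past the threshold when only the 2 groups compared entered the fit (adjusted p = 0.0487). It also passed without white-light replicate 3 (-1.69, adjusted p = 0.0406) or without far-red replicate 2 (-1.22, adjusted p = 0.0223), an array outside the comparison.

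For far-red with ABA the difference was 0.24 (95% confidence interval -0.72 to 1.21, limma adjusted p = 0.870) with arrays that did not overlap, as for 18.8% of all probe sets. For far-red without ABA it was -0.83 (95% confidence interval -1.8 to 0.14, limma adjusted p = 0.306), and it passed without far-red replicate 2 (-1.52, adjusted p = 0.0316). Both treatments together gave -0.98 (limma adjusted p = 0.196), and this passed without the same array (-0.98, adjusted p = 0.0467).

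The averaged ABA difference of PDF1.2 was -0.69 (SE 0.32, limma adjusted p = 0.173), and it passed without white-light replicate 3 (-0.92, adjusted p = 0.0485) or without far-red replicate 3 (-0.93, adjusted p = 0.0449). The averaged far-red difference was -0.29 (limma adjusted p = 0.603) and the interaction 1.07 (SE 0.64, limma adjusted p = 0.821). With far-red replicate 2 left out they were -0.64 and 1.77, and with far-red replicate 3 left out -0.051 and 0.59, the extremes over single arrays, and neither passed. The group means ran white light with ABA, far-red with ABA, far-red and white light from low to high, and none of the 3 steps passed.

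PDF1.2 has near-identical copies, so its signal may include theirs. PDF1.2c is the neighbouring gene and was not analysed here, and PDF1.2b has a probe set whose suffix marks probes that match more than 1 transcript. PDF1.2b read 8.45, 8.53 and 8.64 log2 units in far-red with ABA and 7.90, 9.62 and 7.91 in far-red. It read 8.39, 8.83 and 8.78 in white light with ABA and 9.74, 10.19 and 8.79 in white light. The pattern over arrays was that of PDF1.2 (Pearson r = 0.941 over 12 arrays, 0.977 within groups), and the part of shared hybridisation in it was not tested. PDF1.2b was called in no comparison, and its far-red difference without ABA was -1.10 (SE 0.38, limma adjusted p = 0.0969).

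Of the 7 other measured genes of jasmonate synthesis, turnover, perception and signalling, 2 varied between replicates as widely as PDF1.2, and they are described here because of that spread. JRG21 (AT3G55970), named as a jasmonate-regulated gene in RefSeq, had a pooled SD of 0.990, which 4 probe sets exceeded, and AT5G05600 one of 0.851, which 8 exceeded. Within groups, their deviations correlated with those of PDF1.2 at r = 0.809 for JRG21 and r = 0.786 for AT5G05600, over 12 arrays in 4 groups that share their RNA samples. The other 5 had smaller SDs, and within-group r with PDF1.2 of 0.637 for OPCL1 (SD 0.181), 0.104 for MYC3 (0.134), 0.019 for MYC4 (0.216), 0.018 for AT3G11180 (0.0814) and -0.012 for AT2G38240 (0.200). Such values were not limited to jasmonate genes. Within-group r with PDF1.2 was 0.808 for the salicylate glucosyltransferase gene UGT76B1 (SD 0.280). It was 0.816 for AT4G15700 and 0.854 for AT3G62930, both glutaredoxin genes, and -0.776 for the thionin gene THI2.2. JRG21 was called absent on 1 of 3 arrays in far-red and on 2 of 3 in white light. It had its highest value of each light condition without ABA on the arrays where PDF1.2 was highest, 5.57 on far-red replicate 2 and 5.48 on white-light replicate 2. Unlike PDF1.2, JRG21 and AT5G05600 also spread in groups with ABA, where the SD of JRG21 was 0.33 in far-red and 0.95 in white light.

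**Figure D3:**
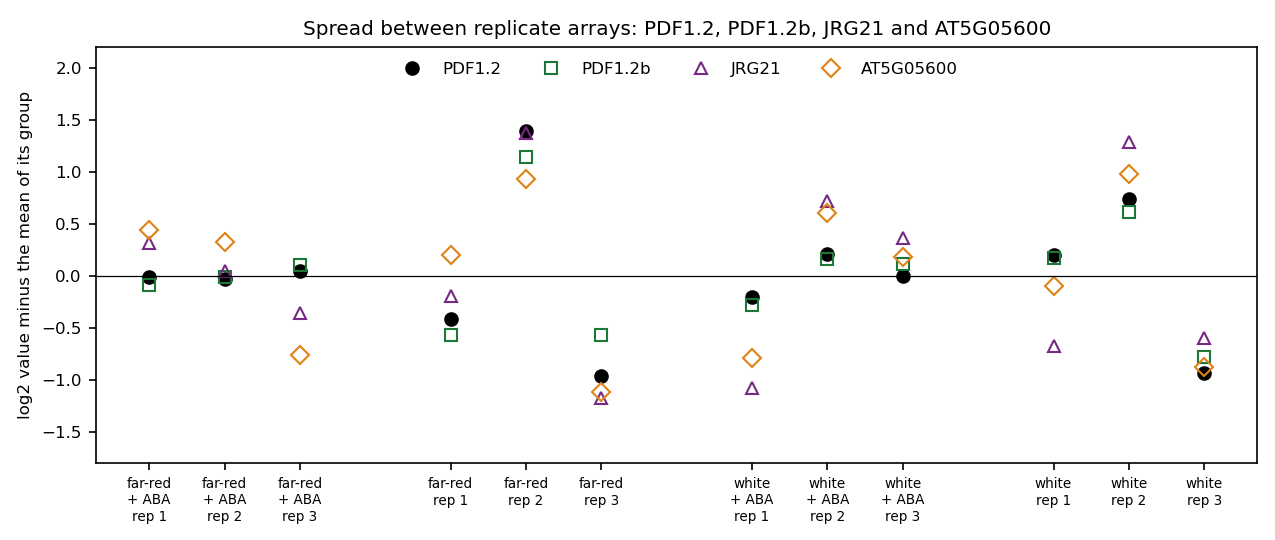
Deviation of each array from its group mean, in log2 units, for PDF1.2, PDF1.2b, JRG21 and AT5G05600, which were chosen for their wide spread, with the 12 arrays along the horizontal axis in the order far-red with ABA, far-red, white light with ABA and white light. In far-red replicate 2 and white-light replicate 2 all 4 genes lie above their group means, and in replicate 3 of these groups all 4 lie below, while PDF1.2 and PDF1.2b stay near 0 in far-red with ABA. The other measured genes of jasmonate synthesis, turnover, perception and signalling are not shown, and their within-group r with PDF1.2 ran from -0.012 to 0.637.

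THI2.1 encodes a thionin known to be induced by jasmonate. Its levels were 3.5, 3.35 and 3.22 log2 units in far-red with ABA and 3.14, 3.42 and 2.94 in far-red. They were 3.36, 3.48 and 3.38 in white light with ABA and 3.23, 3.16 and 3.54 in white light. The groups overlapped in every comparison.

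THI2.1 was near the limit of detection. It was called present on all 3 arrays of white light with ABA and on 1 of white light, and on none of far-red with ABA (2 marginal) or far-red. No fold is given for that reason. The ABA difference was 0.19 under far-red light (95% confidence interval -0.08 to 0.45, limma adjusted p = 0.406) and 0.09 in white light (-0.17 to 0.36, adjusted p = 0.764). The far-red difference was -0.05 with ABA (-0.31 to 0.22, adjusted p = 0.909) and -0.14 without (-0.41 to 0.12, adjusted p = 0.548). Both treatments together gave 0.05 and the interaction 0.09, and no step in the order of the 4 group means passed.

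GRX480 encodes a glutaredoxin of the plant-specific CC class that is induced by salicylate, binds TGA factors and represses PDF1.2 when overproduced. Its levels were 4.44, 4.43 and 4.24 log2 units in far-red with ABA and 4.43, 4.47 and 4.44 in far-red. They were 4.19, 4.52 and 4.62 in white light with ABA and 4.35, 4.48 and 4.49 in white light. The 4 groups overlapped, and their means spanned 0.076 log2 units.

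GRX480 was called present on 1 of 3 arrays in far-red with ABA, 2 in far-red, 2 in white light with ABA and 1 in white light. The ABA difference was -0.08 under far-red light (95% confidence interval -0.30 to 0.15, limma adjusted p = 0.727) and 0.0051 in white light (-0.22 to 0.23, adjusted p = 0.990). The far-red difference was -0.07 with ABA (-0.30 to 0.15, adjusted p = 0.826) and 0.0086 without (-0.21 to 0.23, adjusted p = 0.975). Both treatments together gave -0.07 (-0.29 to 0.15, adjusted p = 0.739), and the interaction was -0.08 (-0.40 to 0.23, adjusted p = 0.953). The differences of 0.0051 and 0.0086 were negative with median centring and with quantile normalization.

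Besides GRX480, 16 of 20 listed CC-type glutaredoxin genes were measured, and several were lower with ABA. Of these 16, 3 were called present on no array and 4 on every array, so some calls lie near the detection limit. With ABA under far-red light 1 was called higher, 8 lower and 7 not called, where 5.06% of all probe sets were called higher and 5.28% lower, and the median difference was -0.40 beside -0.01 for all probe sets. With ABA in white light 1 was higher, 8 lower and 7 not called, where 4.02% of all probe sets were called higher and 2.41% lower, and the median was -0.43 beside -0.0022. The genes of the family were listed from textbook knowledge, but the family was chosen with earlier results of these data known. Signal shared between the related tandem loci AT4G15680, AT4G15690 and AT4G15700 cannot be told apart.

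AT1G06830 was called present on all arrays and averaged 8.12 ± 0.02 log2 units in far-red with ABA and 9.19 ± 0.13 in far-red, a 2.1-fold fall (-1.07, SE 0.09). In white light it averaged 8.31 ± 0.15 with ABA and 9.26 ± 0.09 without, a 1.93-fold fall (-0.95, limma adjusted p = 1.3e-05). AT2G47880 was lower by a log2 difference of -1.72 with ABA under far-red light, with no present call on the arrays with ABA, and at least 2.07-fold lower with ABA in white light. AT4G15680 fell 1.90-fold with ABA under far-red light and 2.15-fold with ABA in white light, and AT4G15690 fell 1.83-fold and 2.05-fold in the same comparisons. The exception was AT4G33040, which rose with ABA by 0.36 under far-red light (limma adjusted p = 0.0192) and by 0.60 in white light (adjusted p = 8.6e-04).

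With far-red light the glutaredoxins split. With ABA present 0 of the 16 were called, and without ABA 2 were higher, AT5G11930 (0.60) and AT4G33040 (0.37), and 3 lower, AT5G18600 (-0.73), AT2G30540 (-0.56) and AT3G62950 (-0.52, called absent on every array, so no fold is given). The medians were -0.06 and -0.09 beside -0.0035 and 0.0026 for all probe sets. Over all probe sets 0.369% were called with ABA present, and 3.87% higher and 2.26% lower without ABA. Far-red with ABA against white light had 1 higher and 10 lower (median -0.69 beside -0.01). There 6.48% of all probe sets were called higher and 4.08% lower. Whether GRX480 differs from the family was not tested.

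**Figure D4:**
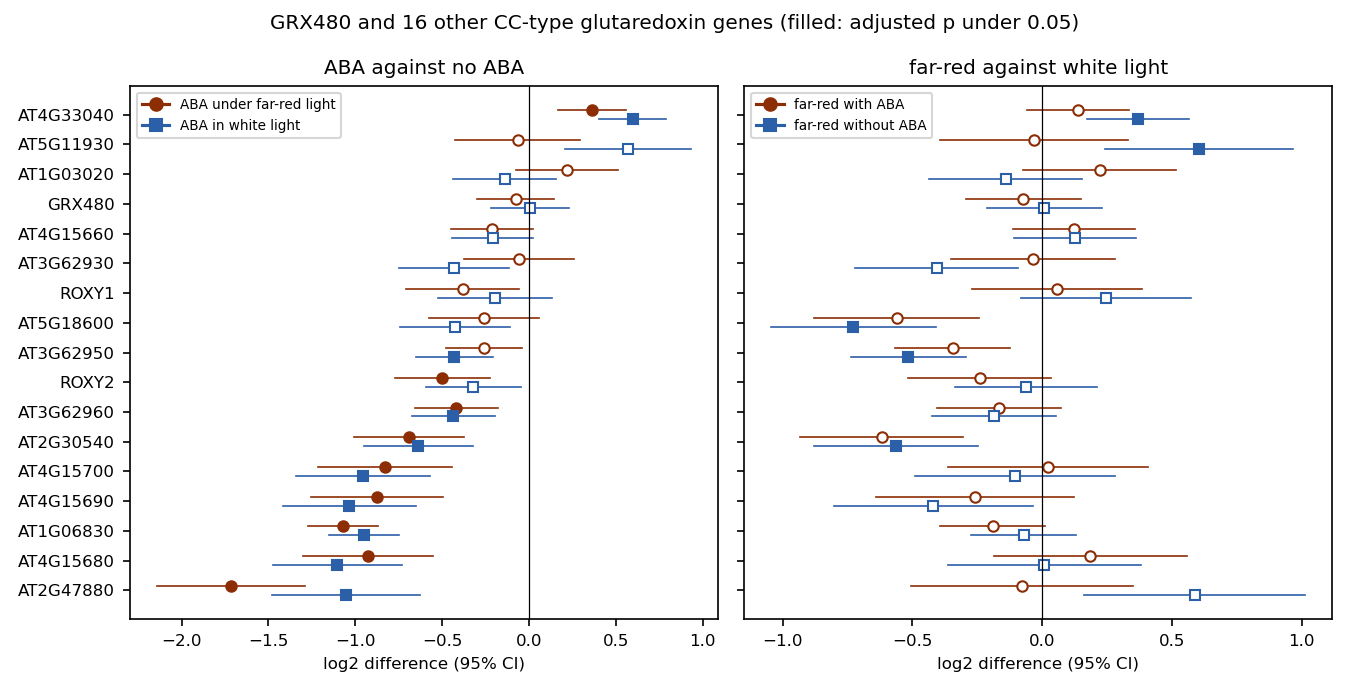
Differences in log2 units with 95% confidence intervals for GRX480 and 16 other CC-type glutaredoxin genes, down the page in the order of their mean ABA difference. The left panel gives ABA against no ABA under far-red light (circles) and in white light (squares), and the right panel far-red against white light with ABA (circles) and without ABA (squares), where filled points passed an adjusted p under 0.05. The intervals of GRX480 include 0 in both panels, while 8 genes under far-red light and 8 in white light were called lower with ABA and AT4G33040 was called higher.

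Among thionins other than the members, 2 of 4 listed genes were measured. THI2.2, a thionin gene, read 7.96, 8.09 and 8.0 log2 units in far-red with ABA and 8.77, 8.68 and 9.07 in far-red. It read 8.12, 7.69 and 7.88 in white light with ABA and 9.08, 8.94 and 9.37 in white light. ABA lowered it 1.77-fold under far-red light (-0.82, SE 0.13, limma adjusted p = 0.0011) and 2.35-fold in white light (-1.23, SE 0.13, adjusted p = 2.5e-05). The groups did not overlap in either comparison, as for 27.7% and 24.6% of all probe sets in the same order.

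The far-red differences of THI2.2 were 0.12 with ABA (95% confidence interval -0.16 to 0.40, limma adjusted p = 0.762) and -0.29 without (-0.57 to -0.01, adjusted p = 0.209), where those of AT1G66100 were -1.21 and -1.36. The difference between the 2 genes was not tested. AT2G15010 was called absent on all arrays and was called lower in far-red with ABA against white light (-0.35, adjusted p = 0.0231) and in the averaged far-red comparison (-0.25).

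Of 12 listed plant defensins other than PDF1.2, 9 were measured. None was called for ABA under far-red light or in white light, for far-red with ABA, or for both treatments together, at medians of 0.18, -0.08, -0.02 and -0.10. Far-red without ABA had 0 higher and 2 lower, with a median of -0.15 beside 0.0026 for all probe sets. In that comparison 3.87% of all probe sets were called higher and 2.26% lower. Of the 9 defensins, 3 were called present on no array. PDF1.4 averaged 4.28 ± 0.24 in far-red and 5.26 ± 0.52 in white light, a 1.98-fold fall (-0.98, SE 0.20, limma adjusted p = 0.0134). PDF1.1 (LCR67) was the other (-0.57, adjusted p = 0.0305), and it was called absent on all arrays, so no fold is given. PDF2.2 (LCR69) and PDF2.3 (LCR68), called present on every array, were called in no comparison.

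**Figure D5:**
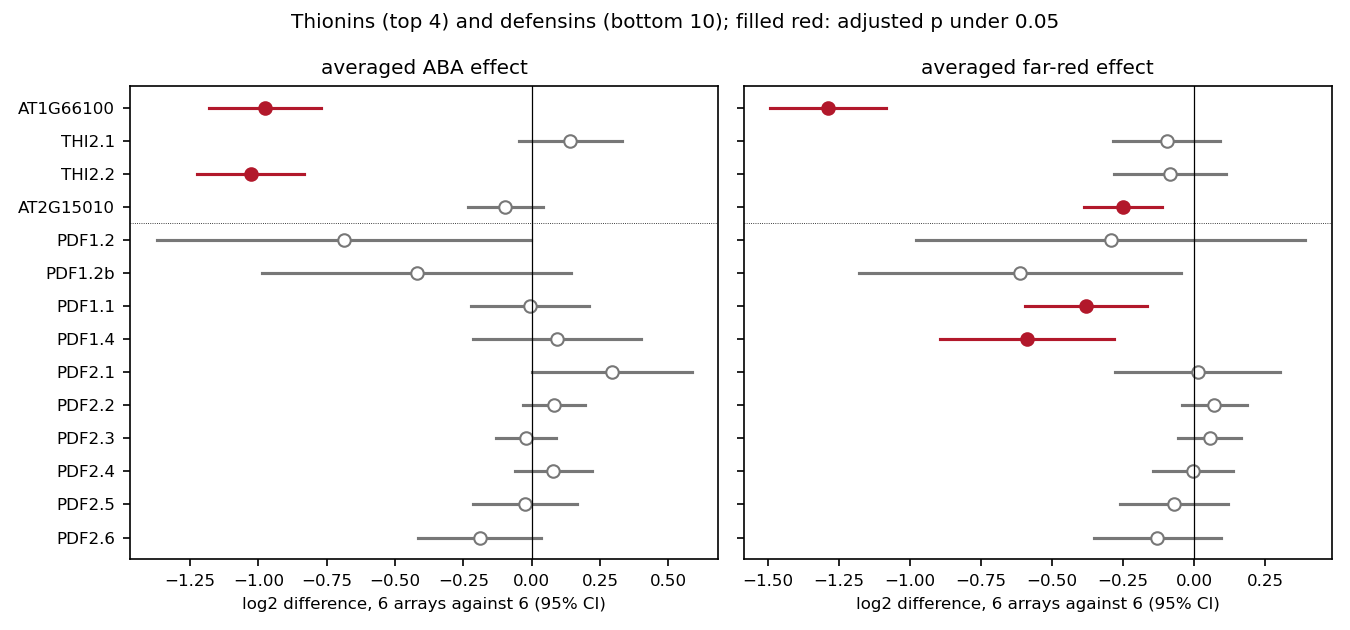
Averaged ABA differences (left) and averaged far-red differences (right) in log2 units with 95% confidence intervals, 6 arrays against 6, for 4 thionin genes (top) and 10 defensin genes (bottom). Filled red points passed an adjusted p under 0.05: AT1G66100 and THI2.2 were lower with ABA (-0.98 and -1.03), and AT1G66100, AT2G15010, PDF1.1 and PDF1.4 were lower with far-red light. PDF1.2 has the widest interval in each panel.

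JMT belongs to the SABATH methyltransferases, which methylate hormones and other acids. Of 22 other listed members 14 were measured, and 7 of these were called present on no array. With ABA under far-red light 2 were higher and 0 lower (median 0.09 beside -0.01). Over all probe sets, 5.06% were called higher and 5.28% lower there. In white light 1 was higher and 0 lower (median 0.08 beside -0.0022), beside 4.02% and 2.41% of all probe sets. Both treatments together gave 3 higher and 0 lower, beside 6.48% and 4.08%. The averaged ABA comparison gave 5 higher and 0 lower, beside 8.64% and 8.57%. AT5G38020 averaged 6.29 ± 0.29 in far-red with ABA and 5.53 ± 0.34 in far-red, a 1.70-fold rise (0.76, SE 0.18, limma adjusted p = 0.0120). In white light it averaged 6.29 ± 0.25 with ABA and 5.16 ± 0.20 without, a 2.18-fold rise (1.12, adjusted p = 0.0010). AT5G04380 was the other called under far-red light (0.42, adjusted p = 0.0077), and it was called present on 1 array in all. None of the 14 was called with far-red light at either ABA level, where JMT was called higher without ABA.

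Few genes of the jasmonate pathway itself could be matched by name to a probe set. In all, 8730 probe sets had no listed gene and were tested without a name. Of 24 listed genes of jasmonate synthesis and turnover 5 were measured, and 0 were called in any comparison. Of these, AT3G11180 and AT2G38240 were called absent on every array, and JRG21 and AT5G05600 had the wide spread described above. The ABA difference of AT5G05600 under far-red light, 0.80, did not pass. For these genes the lack of a call says little. OPCL1, which activates a jasmonate precursor, averaged 6.92 ± 0.04 in far-red with ABA, 6.86 ± 0.30 in far-red, 7.0 ± 0.15 in white light with ABA and 6.77 ± 0.13 in white light. Of 23 listed genes of perception and signalling 2 were measured, the transcription factors MYC3 and MYC4, and neither was called. MYC3 differed by 0.22 (limma adjusted p = 0.244) and MYC4 by 0.20 (adjusted p = 0.470) in far-red against white light. The 11 other listed jasmonate output genes were not analysed here.

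For salicylate, 3 of 15 listed genes of synthesis and turnover were measured, and 0 were called in any comparison of groups. UGT74F1, which attaches glucose to salicylate, differed by -0.29 with ABA under far-red light (limma adjusted p = 0.0536). It was called lower in the averaged ABA comparison (-0.22, limma adjusted p = 0.0290), as were 8.57% of all probe sets. Its present calls were limited to 2 of 3 arrays in far-red and 1 of 3 in white light with ABA. UGT76B1, another glucosyltransferase acting on salicylate, differed by 0.36 in far-red with ABA against white light with ABA (adjusted p = 0.466) and by 0.30 in far-red against white light (adjusted p = 0.359). BSMT1, which methylates salicylate, was called absent on every array. Of 25 listed genes of salicylate perception and signalling 2 were measured, SAG101, a partner of the immune regulator EDS1, and AT4G26120, and 0 were called. AT4G26120 was called present only on 1 array, of white light with ABA, so its lack of a call says little. The 4 other listed salicylate output genes were not analysed here.

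The genes most like each member over the 12 arrays were also listed. For each member, the 3 single-gene probe sets with the highest Pearson r were taken from 8412 that were called present on at least 3 arrays. AT1G66100 was followed by AT5G62360 (r = 0.981), AT2G30600 (0.953) and AT1G78460 (0.947), and within groups the r of these genes was 0.366, 0.267 and -0.051 in the same order. AT5G62360 averaged 5.20 ± 0.14 log2 units in far-red with ABA, 6.53 ± 0.32 in far-red, 6.92 ± 0.11 in white light with ABA and 8.56 ± 0.20 in white light. That is the same order of groups with wider steps.

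The 3 genes most like JMT were AT3G05470 (r = 0.941), AT1G66250 (0.938) and AT4G23000 (0.888), with 0.868, 0.908 and 0.660 within groups. AT1G66250 averaged 7.20 ± 0.16 in far-red with ABA, 7.70 ± 0.04 in far-red, 7.24 ± 0.04 in white light with ABA and 7.27 ± 0.16 in white light, so far-red without ABA stood above the rest as for JMT. PDF1.2 was followed by PDF1.2b (0.941), the glutaredoxin gene AT3G62930 (0.886) and AT5G14730 (0.881). The closest to THI2.1 were AT1G34110 (0.800), AT1G15600 (0.796) and AT3G22430 (0.784), with 0.726, 0.933 and 0.688 within groups. To GRX480 they were AT1G73570 (0.780), AT3G51320 (0.773) and AT1G52530 (0.767), with 0.780, 0.829 and 0.768 within groups. These 2 members lie near the detection limit, and AT1G52530 was called absent on every array of both white-light groups. The arrays share 4 groups and common RNA samples, so these values describe likeness over 12 arrays and carry no test. Among the members themselves the highest r over 12 arrays was 0.364, for PDF1.2 and AT1G66100, which had a Spearman rho of 0.140 and an r of -0.404 within groups.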

How the data were processed

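Each of 12 RNA samples was hybridised to 1 array. The deposited log2 values per probe set come from RMA in the affy package, and the deposited present, marginal and absent calls from MAS5, per the submitters' processing notes. Tool versions and a genome build are not named there. RMA brings arrays to a like scale and compresses low values, so small differences near the detection limit may be understated. The medians per array still differed, from 5.45 to 5.62 log2 units. The 2 deposited tables held the same values to within 5e-09.

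Of 22810 probe sets 64 controls were left out. Names came from the platform's annotation (13513 probe sets with 1 gene, 503 with several, 8730 not listed), updated through RefSeq (TAIR10.1, 13436 matched). Only named genes could be matched to lists, and listed genes matched in this way are called measured. The other probe sets were tested without a name. No coordinates or sequences are given.

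Differences were fitted with limma 3.58.1 in R 4.3.3, as a mean per group on all 12 arrays followed by contrasts, eBayes (8 residual and 7.21 prior degrees of freedom) and two-sided Benjamini-Hochberg adjustment over 22746 probe sets. The script was tested on simulated data. A fold against a group called absent on every array is a lower bound, and none is given where neither group was detected. All members were named, with called list members up to 4 per list and comparison, and 3 genes of like profile per member. Figures used matplotlib 3.10.9.

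The members and lists were chosen with earlier results of these data known. Alternatives were median centring, quantile normalization, an intensity trend with robust variances, only the groups compared, a filter on present calls, the replicate number as a block, and leaving out each array.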

Additional observations from a re-analysis of the deposited data

How the results depend on the processing

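AT1G66100 kept its direction and its call in all 5 comparisons of groups and both averaged comparisons under every alternative listed above, and so did the JMT call for ABA under far-red light. Of 697 member results recomputed, 659 kept direction and side of the threshold, 2 lost a call, 10 gained a call and 26 turned sign, none of them a called difference. The cause of these changes was not tested.

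Leaving out each array gave ranges for PDF1.2 of -1.69 to -0.85 for ABA in white light, -0.64 to 0.54 for ABA under far-red light, -1.52 to -0.34 for far-red without ABA, -1.45 to -0.61 for both treatments together and -0.93 to -0.34 for the averaged ABA effect. For JMT they were 0.49 to 0.65 for far-red without ABA, -0.14 to 0.12 for both together, -0.28 to -0.15 for the averaged ABA effect (called when white-light replicate 1, or replicate 1 of far-red with ABA, was left out) and 0.14 to 0.27 for averaged far-red (called when replicate 2 of far-red with ABA was left out). For THI2.1 they were -0.12 to 0.019 for far-red with ABA, -0.032 to 0.16 for both together and -0.023 to 0.22 for the interaction. For GRX480 they were -0.084 to 0.13 for ABA in white light, -0.037 to 0.034 for far-red without ABA, -0.20 to 0.016 for far-red with ABA, -0.21 to 0.0075 for the interaction, -0.080 to 0.027 for averaged ABA and -0.095 to 0.012 for averaged far-red.

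With median centring GRX480 gave -0.050 for ABA in white light, -0.085 for far-red without ABA and 4.5e-04 for the interaction, and THI2.1 gave -0.021 for both together. With quantile normalization GRX480 gave -0.021 and -0.0053 in the first 2 of these and THI2.1 gave 0.0039 for far-red with ABA. With only the groups compared, PDF1.2 for ABA in white light was called at -1.22, and 642 probe sets were called for far-red without ABA, where the full fit has 1393. An intensity trend with robust variances called 149 for far-red with ABA (84 in the full fit) and 2 for the interaction (0). Centring changed the averaged far-red split of calls to 28.8% higher, beside 57.1%.

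Without single arrays the called counts ranged over 908 to 1510 for ABA in white light, 1518 to 2434 for ABA under far-red light, 418 to 1689 for far-red without ABA, 31 to 81 for far-red with ABA, 1492 to 2371 for both together, 0 to 2 for the interaction and 1133 to 2571 for averaged far-red. Fits without 1 array assume that the remaining 2 vary like the other groups.

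The replicate numbers of the titles were not taken as pairs in the main fit. Correlations of deviations between same-numbered arrays of different groups ran from -0.05 to 0.27 (median 0.092). Those between arrays of unlike number ran from -0.21 to 0.13 (median -0.039). All 12 of 12 arrays correlated best with an array of their own number, and what same-numbered arrays share was not tested. With a replicate block, 1762 probe sets were called for far-red without ABA and 103 for far-red with ABA, and no member's call changed. GRX480 was not in the fit restricted to probe sets called present on every array of a group. THI2.1, GRX480 and the lower JMT values lie near the detection limit, where differences are compressed.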

Other observations

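Of the 10 genes next to the members on the chromosome, in RefSeq's order, 7 were measured. AT1G72250, beside THI2.1, was higher in far-red than in white light (0.62, SE 0.14, limma adjusted p = 0.0179) and in the averaged far-red comparison (0.51), where THI2.1 was not called. AT1G66090, beside AT1G66100, was lower with ABA in white light (-0.42, adjusted p = 0.0476). AT1G19650, beside JMT, was higher in the averaged ABA comparison (0.24, adjusted p = 0.0246). The other 4 were called in no comparison.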
